A study of Rattus norvegicus with 4 samples.

Results

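Genes for the subunits of the nuclear RNA polymerases and for the factors that build ribosomes in the nucleolus were followed in whole neonatal rat ovaries (Rattus norvegicus) kept in culture. Members were taken by gene symbol from the array annotation: the subunits of RNA polymerases I, II and III (Polr1, Polr2 and Polr3), the numbered Nop, Nol, Utp and Rrp families, the Exosc genes of the RNA exosome, and Gtpbp4, Fbl, Ncl, Npm1, Bop1, Gar1 and Dkc1. The rule found 79 genes (100 probe sets) among 14217 genes that have at least 1 probe set with a single symbol. Each gene was represented by its probe set with the highest mean over the 4 arrays, and 78 of the 79 were bright enough to be tested. Nol4 was too dim. Npm1 was not among the 79, since its 3 probe sets also carry the symbol of a pseudogene.

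The AMH group consisted of ovaries taken on postnatal day 4 and cultured on floating filters for 10 days with AMH at 50 ng/mL. Anti-Müllerian hormone (AMH) belongs to the TGF-beta family and is made by granulosa cells of growing follicles. The control group consisted of ovaries of the same age cultured for the same 10 days without AMH. Both groups were kept in the same defined medium with albumin, transferrin, insulin and ascorbic acid, at the same concentrations. Some 10 ovaries were pooled per RNA sample, and the 2 pools of each group, independent of each other, were read on 1 Affymetrix array apiece, 4 arrays in all. The series title asks which transcripts AMH changes as it holds back the passage of primordial follicles to the primary stage. No strain is named in the labels.

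RNA polymerase I transcribes the large ribosomal RNA precursor in the nucleolus, RNA polymerase II transcribes messenger RNAs and most small nucleolar RNAs, and RNA polymerase III transcribes transfer RNAs and 5S ribosomal RNA. The precursor is modified by small nucleolar ribonucleoproteins (snoRNPs), folded and cleaved in the small subunit processome and in large subunit precursors, and trimmed by the RNA exosome. Growing oocytes and dividing granulosa cells both need new ribosomes, and a growing oocyte has a prominent nucleolus.

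Values are deposited probe set intensities. A change is the mean of log2(intensity + 16) with AMH minus that in control, ± its standard error, from limma fitted over all 18625 tested probe sets (n = 2 per group). This scale understates the change of dim probe sets. A gene is said to have risen or fallen where its Benjamini-Hochberg adjusted p over all tested probe sets was below 0.05, and p-values are of this kind. The number of arrays limits the precision.

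Facts of the arrays as a whole bear on every comparison. For GAPDH, the signal at the 3′ end over that at the 5′ end, which is high where RNA or its labelled copy is short, was 6.56 and 6.37 on the AMH arrays and 1.17 and 1.27 on the control arrays. For beta-actin the ratio was 10.7 and 14.4 on the AMH arrays and 3.17 and 4.603 on the control arrays. The chip names carry 2 strings of digits, 0 of them shared by the groups. What these strings mark is not known here, and whatever it is cannot be told apart from treatment. Oocyte markers (7 of 12 listed were measured) summed to 7400 and 7900 on the AMH arrays and to 10492 and 9815 on the control arrays. Of them 4 fell (Gdf9, -2.14, Bmp15, -1.93, Sycp3, -1.01, and Ooep, -0.61). Zp2 and Zp3, which make up much of the sum, were not called (-0.00 for each), nor was Zp1 (-0.40). Granulosa markers (8 of 9 measured) summed to 5466 and 3372 on the AMH arrays and to 2568 and 2115 on the control arrays, with 2 risen and 0 fallen. Macrophage and leukocyte markers (10 measured, 1 risen and 1 fallen) summed to 954.5 and 2285 on the AMH arrays and to 1478 and 1342 on the control arrays. Endothelial markers (6 measured) summed to between 904 and 1091 on all arrays, with 0 called. Red cell markers (3 measured) summed to 114.6 and 88.2 on the AMH arrays and to 1438 and 1240 on the control arrays, and 1 of them fell (Hbb, -3.88). Proliferation genes (8 measured) summed to 6404 and 6475 on the AMH arrays and to 6271 and 5872 on the control arrays, with 2 risen (Cdk1, 0.70, and Mcm2, 0.68) and 1 fallen (Ccnb1, -1.08). Theca and steroidogenic markers (6 measured, 3 of them tested, 0 called) summed to 2324 and 468 on the AMH arrays and to 421.5 and 329.8 on the control arrays. No measured marker of these lists stayed below an intensity of 10 on all 4 arrays. The part of these differences in the results was not tested, and in whole ovaries fewer cells of a type cannot be told from less RNA per cell.

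With AMH, calls among the polymerase and ribosome biogenesis genes were mostly falls. Of the 78 tested members 23 fell, 2 rose and 53 were not called. Among all 10621 tested genes, each at 1 probe set, 11.9% fell and 11.1% rose, while 29.5% of the members fell and 2.56% rose. The falls were spread over the polymerases (9 of 29 subunit genes), the exosome (4 of 9), the snoRNPs (2 of 6), the small subunit processome (5 of 19), the large subunit factors (2 of 12) and nucleolin. The median change of the members was -0.07, against 0.07 for all tested genes. With the arrays scaled to the hybridization controls instead, 32 members fell and 0 rose, where 2593 of all tested genes fell and 94 rose. Changes ran from -2.49 for Polr3k to 0.73 for Utp20. By the arrays alone, both AMH values lay below both control values for 34 members (28.6% of all tested genes did so) and above both for 27 (36%), and the groups overlapped for 17. At least 2-fold falls were seen for 13 of the 78 members (6.05% of all tested genes) and at least 2-fold rises for 0 (2.01%). Of the 23 falls, 11 were called in all 14 alternatives run, those of Polr3k, Polr2i, Polr2j, Polr2c, Polr2l, Exosc8, Exosc5, Utp23, Gtpbp4, Rrp15 and Nop10, with adjusted p at most 0.046. Without control replicate 1 the falls numbered 12 and without control replicate 2 they numbered 13 (15.4% and 16.7% of the members, where 5.235% and 6.47% of all tested genes fell), with 0 rises in either case (2.22% and 3.945% of all tested genes). Without AMH replicate 1, 7 members rose (8.97%, where 15.7% of all tested genes rose), and without AMH replicate 2, 4 members did (5.13%, where 14.6% of all tested genes rose).

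**Figure D1:**
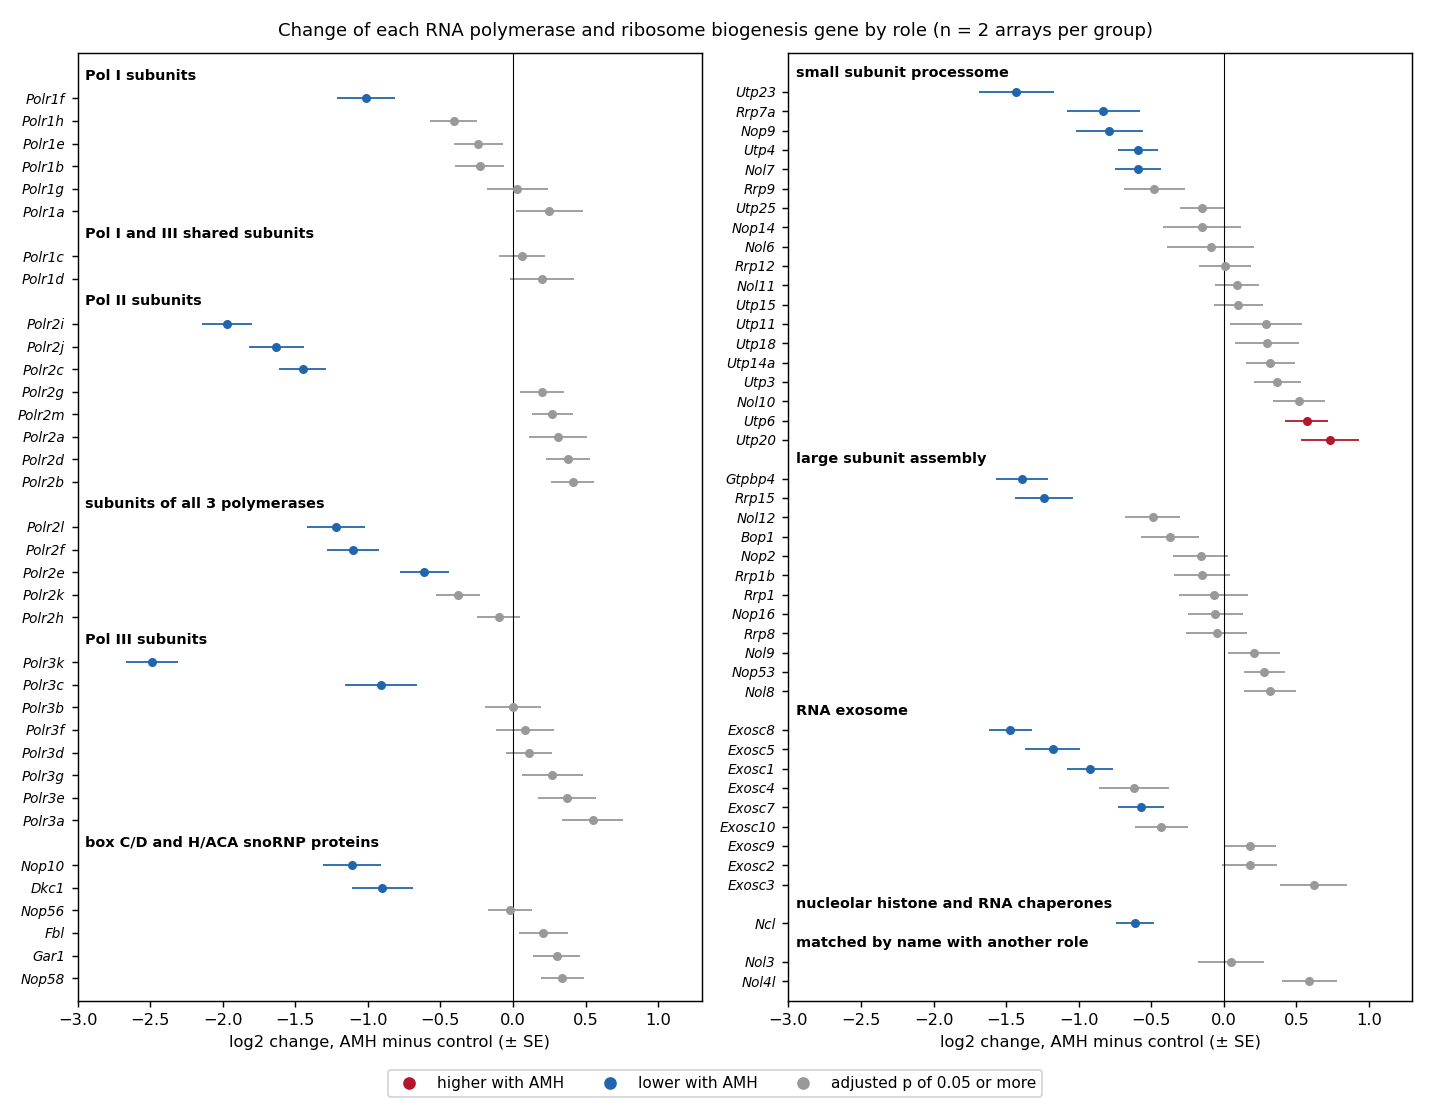
Log2 change (AMH minus control, ± SE from limma, n = 2 per group) of the 78 tested members, grouped by role; blue marks genes that fell, red genes that rose and grey genes that were not called. Blue points lead every role but the shared polymerase I and III subunits and the genes matched by name, with Polr3k farthest left at -2.49, and the 2 red points are Utp6 and Utp20 of the small subunit processome.

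The subunits of RNA polymerase II did not move together. Polr2i encodes a small zinc-binding subunit that acts in transcript cleavage and fidelity. Its intensity was 137.5 and 159 on the AMH arrays and 661.6 and 588.8 on the control arrays. It fell by 1.97 ± 0.17 (3.91-fold, adjusted p = 0.00051). Polr2c and Polr2j encode the pair of subunits that form the platform on which the enzyme assembles. For Polr2j the AMH arrays gave 182.1 and 257.5 and the control arrays 686.5 and 718.5. For Polr2c the AMH arrays gave 280.4 and 312.8 and the control arrays 798.8 and 874.6. Both AMH arrays lay far below both control arrays for each of these genes. Polr2j fell by 1.63 ± 0.19 (adjusted p = 0.00142) and Polr2c by 1.45 ± 0.16 (adjusted p = 0.000979).

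None of the other 5 RNA polymerase II genes was called at its brightest probe set. Each had both AMH arrays above both control arrays there, as did 36% of all tested genes. Polr2a, which encodes the largest, catalytic subunit with the repeat-bearing tail, had intensities of 253.4 and 284.4 with AMH and 179.6 and 252.9 in control (0.31 ± 0.20, adjusted p = 0.305). Polr2b, the second largest subunit, had 917.9 and 986 with AMH and 660.7 and 769 in control (0.41 ± 0.15, adjusted p = 0.0898). The stalk subunit gene Polr2d had 669.3 and 715.1 with AMH and 552.4 and 505.7 in control (0.38 ± 0.15, adjusted p = 0.106), and its partner Polr2g gave 0.20 ± 0.15. Polr2m, whose product holds RNA polymerase II in an inactive state until Mediator acts, gave 0.27 ± 0.14. A dimmer probe set of Polr2m fell by 1.89 ± 0.20 (adjusted p = 0.000939). With the arrays scaled to the hybridization controls Polr2a (-0.14), Polr2b (-0.07) and Polr2d (-0.09) changed sign, again without a call. The median change of all genes moved to -0.35 under that scaling.

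**Figure D2:**
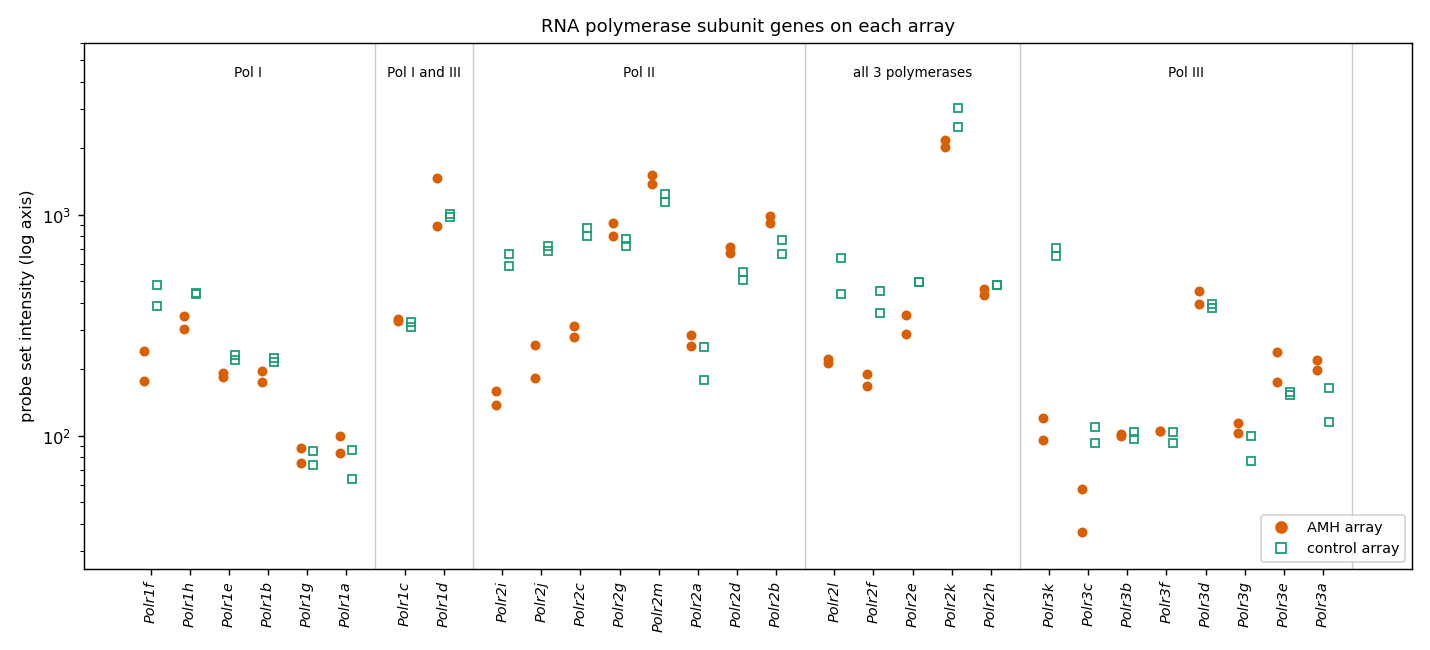
Probe set intensity (log axis) of the 29 RNA polymerase subunit genes on each AMH array (filled circles) and each control array (open squares), in blocks by polymerase and ordered by change within a block. Wide gaps with AMH below control are seen for Polr2i, Polr2j, Polr2c, Polr2l, Polr2f and Polr3k, while Polr2a, Polr2b, Polr2d, Polr2g and Polr2m lie slightly higher with AMH.

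Subunits common to all 3 polymerases lay lower with AMH at the brightest probe set of each gene. All 5 genes had both AMH arrays below both control arrays there (28.6% of all tested genes did so). Of these 5 genes 3 fell, where 11.9% of all tested genes did. A dimmer probe set of Polr2f gave 0.32 ± 0.28, with overlapping groups. Polr2l, which encodes a small zinc-binding assembly subunit, had 212.4 and 222.9 with AMH and 639.4 and 438.4 in control, and fell by 1.22 ± 0.20 (adjusted p = 0.00562). Polr2f had 167.3 and 191.1 with AMH and 452.2 and 358.3 in control and fell by 1.10 ± 0.18 (adjusted p = 0.00583). That call was lost without control replicate 1 (-0.94, adjusted p = 0.0562). Polr2e had 289 and 353.3 with AMH and 493.6 and 495.5 in control and fell by 0.61 ± 0.17 (adjusted p = 0.0353), a call lost without control replicate 1 (0.206) or control replicate 2 (0.187). Polr2k (2028 and 2188 with AMH, 3026 and 2505 in control) was not called at -0.38 ± 0.15 (adjusted p = 0.101), though it passed without AMH replicate 2 (-0.44, 0.0373). For Polr2h the values were 432.3 and 462.6 with AMH and 480.8 and 480.3 in control (-0.10 ± 0.15).

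RNA polymerase III held the largest fall among the members. Polr3k encodes its counterpart of the small Polr2i subunit, needed for RNA cleavage and for termination. Its intensity was 95.3 and 120.6 on the AMH arrays and 705.6 and 649.3 on the control arrays. It fell by 2.49 ± 0.18 (5.62-fold, adjusted p = 0.000268). Polr3c, of the trimer that takes part in initiation, had 36.5 and 57.3 with AMH and 92.3 and 109.9 in control and fell by 0.91 ± 0.25 (adjusted p = 0.0332). This smaller fall was lost without either control array (0.102 and 0.187) and without AMH replicate 1 (0.063). The trimer's other genes, Polr3f and Polr3g, gave 0.08 ± 0.20 and 0.27 ± 0.21.

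Of the 8 RNA polymerase III genes 2 fell (25%, where 11.9% of all tested genes fell) and 6 were not called. Polr3a, the largest subunit, had 219.3 and 198.8 with AMH and 164.7 and 115.2 in control (0.55 ± 0.21, adjusted p = 0.0986), with no overlap between the groups. Polr3b, the second largest, had 102.2 and 99.8 with AMH and 104.3 and 97 in control (0.00 ± 0.19). Polr3d gave 0.11 ± 0.16 and its partner Polr3e 0.37 ± 0.20, with 238.9 and 175.4 with AMH and 152.7 and 157.5 in control for Polr3e. The array also carries a control probe set for 5S ribosomal RNA, a product of this polymerase. It read 275.4 and 292 on the AMH arrays and 305.5 and 261.6 on the control arrays, which overlap; the RNA it reports has no poly(A) tail and its labelling was not checked here.

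RNA polymerase I genes gave 1 fall among 6 (16.7%, where 11.9% of all tested genes fell). Polr1f, a stalk subunit that contacts the initiation factor Rrn3, had 177 and 240.5 with AMH and 388.1 and 479 in control and fell by 1.01 ± 0.20 (2.01-fold, adjusted p = 0.0111, and 0.0722 without control replicate 2). Polr1h, the polymerase I counterpart of Polr2i and Polr3k, had 305.2 and 349.1 with AMH and 441.8 and 438.5 in control (-0.41 ± 0.16, adjusted p = 0.0995). It passed without AMH replicate 2 (-0.51, 0.0405). The catalytic subunit genes were not called, with 99.8 and 83.5 with AMH and 64 and 85.8 in control for Polr1a (0.25 ± 0.23). Polr1b had 197.2 and 174.6 with AMH and 215.8 and 223.6 in control (-0.23 ± 0.17). Polr1e and Polr1g, which together form the dimer at the polymerase's flank, gave -0.24 ± 0.17 and 0.03 ± 0.21, with 87.8 and 75.5 with AMH and 73.7 and 85.6 in control for Polr1g, where the groups overlap. Polr1c and Polr1d, which take the place of Polr2c and Polr2j in polymerases I and III, gave 0.06 ± 0.16 and 0.20 ± 0.22. Polr1c had 329.4 and 336.9 with AMH and 326.8 and 310.5 in control. For Polr1d the AMH arrays lay far apart (888.3 and 1462, with 971.7 and 1008 in control), so that it passed without AMH replicate 1 (0.56, adjusted p = 0.0127) and gave -0.15 without AMH replicate 2.

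Among the snoRNP proteins, the H/ACA genes moved unevenly. These particles turn uridines of ribosomal RNA into pseudouridine. Nop10, a small scaffold protein, had 513.9 and 772.1 with AMH and 1381 and 1373 in control and fell by 1.11 ± 0.20 (adjusted p = 0.0074). Dkc1, the pseudouridine synthase, had 92.1 and 75.2 with AMH and 153.3 and 185.8 in control and fell by 0.90 ± 0.21 (adjusted p = 0.0186). The Dkc1 call was lost without control replicate 1 (0.062) or control replicate 2 (0.149). Gar1, the remaining H/ACA member by the rule, had 327.2 and 341.5 with AMH and 277.2 and 258.4 in control (0.30 ± 0.16, adjusted p = 0.209).

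The box C/D genes, whose particles methylate ribosomal RNA, were not called at the brightest probe set of each. Fbl, the methyltransferase fibrillarin, had 952.9 and 1246 with AMH and 947 and 937.9 in control (0.21 ± 0.17), and passed only without AMH replicate 1 (0.40, adjusted p = 0.0489) among the alternatives. Nop58 had 1366 and 1516 with AMH and 1037 and 1232 in control (0.34 ± 0.15). Nop56 had 809.3 and 747.5 with AMH and 751.2 and 827.5 in control (-0.02 ± 0.15) at its brightest probe set. With the mean over its probe sets Nop56 was called lower by limma (-0.65, adjusted p = 0.0355). Ncl, nucleolin, an abundant nucleolar RNA-binding protein, had 1830 and 1825 with AMH and 2690 and 2902 in control. It fell by 0.61 ± 0.13 (adjusted p = 0.016), a call lost without either control array (0.117 and 0.175) and without an intensity trend in the fit (0.0601).

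The RNA exosome, a barrel of subunits that guides RNA to its nucleases, had 4 falls among 9 measured genes. That is 44.4%, where 11.9% of all tested genes fell. Of the barrel's ring, Exosc8 had 246.6 and 255.1 with AMH and 747.8 and 694.7 in control and fell by 1.47 ± 0.15 (2.76-fold, adjusted p = 0.000893). Exosc5, also of the ring, had 63.9 and 62.9 with AMH and 159.1 and 168.1 in control and fell by 1.18 ± 0.19 (adjusted p = 0.00538). Exosc7, a further ring gene, had 297.1 and 342.1 with AMH and 481.3 and 482.7 in control and fell by 0.57 ± 0.16 (adjusted p = 0.037), a call lost without control replicate 1 (0.229) or control replicate 2 (0.208). Exosc4 and Exosc9 of the same ring were not called, at -0.62 ± 0.24 and 0.18 ± 0.18.

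Of the cap proteins that bind RNA at the barrel's mouth, Exosc1 had 238.5 and 261.7 with AMH and 509.3 and 462.4 in control and fell by 0.92 ± 0.16 (adjusted p = 0.00706, and 0.0732 without control replicate 1). The other cap genes pointed the opposite way without a call. Exosc2 had 159.6 and 142.4 with AMH and 136.6 and 125.3 in control (0.18 ± 0.19), and Exosc3 had 268.3 and 172.8 with AMH and 133 and 136.3 in control (0.62 ± 0.23, adjusted p = 0.085). Exosc3 passed without AMH replicate 2 (0.92, adjusted p = 0.00716). Exosc10, the nuclear exonuclease bound to the barrel, had 133.5 and 135.9 with AMH and 195.2 and 180.3 in control (-0.43 ± 0.18, adjusted p = 0.117).

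**Figure D3:**
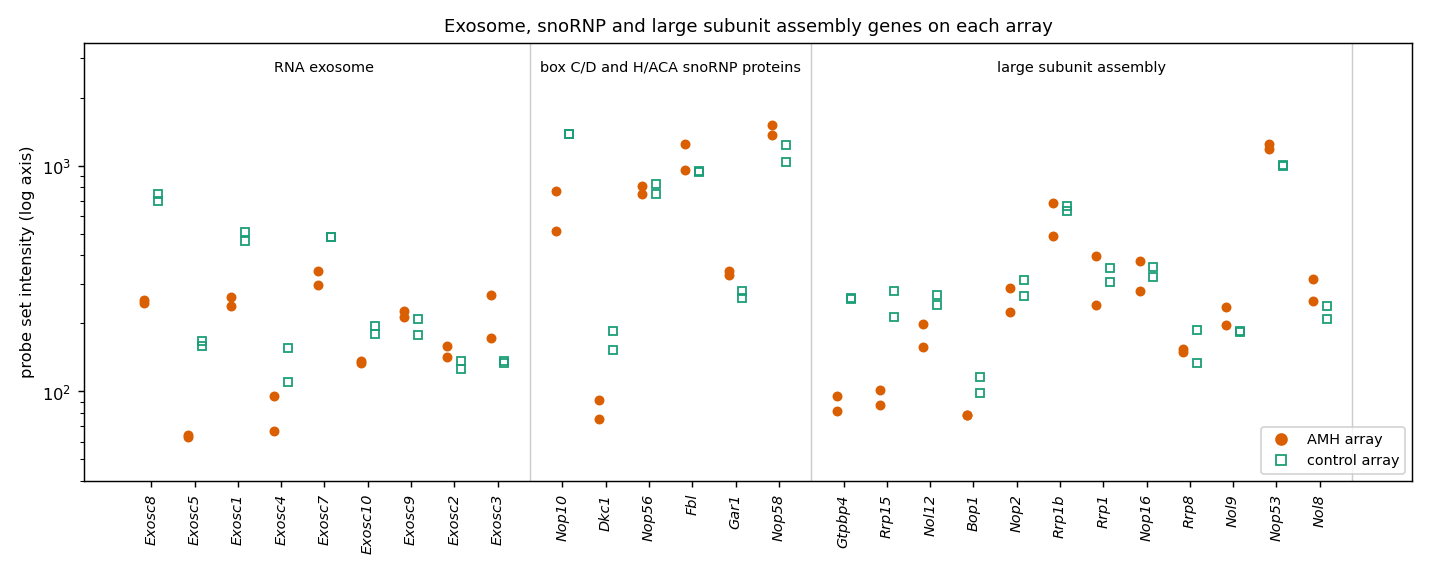
Probe set intensity (log axis) of the RNA exosome, snoRNP and large subunit assembly genes on each AMH array (filled circles) and each control array (open squares), ordered by change within a block. Exosc8, Exosc5, Exosc1, Nop10, Dkc1, Gtpbp4 and Rrp15 have both AMH arrays well below control, while Fbl, Gar1, Nop58 and Nop53 lie level or slightly higher with AMH.

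Promoter sequence was looked at for what the members share beyond their names. Letters of several motifs were counted, and the NRF1 motif is described here. The others are given at the end. Of these, the E-box CACGTG and the ETS motif CCGGAAG stood in more member windows (30.6% and 38.9%). RefSeq windows of the GRCr8 assembly, from 250 bases before to 50 after each gene's start, were found for 72 of the 79 members. The binding motif of NRF1, a factor known to act on genes of basic cell metabolism, was searched on both strands as GCGCA and GCGC with 1 base of any kind between them. It stood in 16 of the 72 windows (22.2%), in 10.5% of the windows of 8839 tested genes and in 4.71% of all 27457. By call, 8 of the 21 members with a window that fell held it, as did 8 of the 48 that were not called and 0 of the 2 that rose. Exosome genes held it in 6 of 8 windows, namely those of Exosc1, Exosc2, Exosc5, Exosc7, Exosc8 and Exosc10. Every exosome gene that fell is among these, so the split by call overlaps with that by role and was not tested. Matches are letters in a window and not shown to be bound. Shown here are the stretches around the match for 3 exosome genes that fell, for Exosc10, which was not called, and for the fallen polymerase genes Polr3k and Polr2f, with the motif in capitals and 30 bases on each side, cut where the gene starts. All are written along the gene's strand.
Exosc8: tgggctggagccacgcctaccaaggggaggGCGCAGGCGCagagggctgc
Exosc1: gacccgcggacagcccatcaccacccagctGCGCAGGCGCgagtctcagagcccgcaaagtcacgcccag
Exosc7: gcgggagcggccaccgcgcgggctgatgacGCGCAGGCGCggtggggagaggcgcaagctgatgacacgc
Exosc10: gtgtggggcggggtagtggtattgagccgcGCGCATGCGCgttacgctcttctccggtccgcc
Polr3k: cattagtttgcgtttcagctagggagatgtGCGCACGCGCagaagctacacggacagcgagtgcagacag
Polr2f: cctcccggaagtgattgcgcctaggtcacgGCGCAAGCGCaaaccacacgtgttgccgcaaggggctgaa

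These stretches lie at chr2:141087098-141087147 (minus strand) for Exosc8, chr1:250694902-250694971 (minus) for Exosc1 and chr8:131650975-131651044 (plus) for Exosc7. Those of Exosc10, Polr3k and Polr2f lie on the plus strand at chr5:164278377-164278439, chr3:189360153-189360222 and chr7:112592987-112593056. The motif begins 20 bases before the gene's start in Exosc8, 33 in Exosc10, 47 in Polr2f and 58 in Exosc7, but 166 in Polr3k and 193 in Exosc1. Polr2i, Polr2j and Gtpbp4, which fell as clearly, hold no such letters in their windows.

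Genes of the small subunit processome, the large particle that folds and cleaves the precursor of 18S ribosomal RNA, moved in both directions. Of 19 tested, 5 fell, 2 rose and 12 were not called, with a median change of 0.01. The called shares were 26.3% and 10.5%, where 11.9% of all tested genes fell and 11.1% rose. Utp23, a nuclease-fold protein of the particle, had 51.2 and 30.7 with AMH and 116.3 and 156.9 in control and fell by 1.43 ± 0.26 (adjusted p = 0.00798). Utp4, of the subcomplex that binds the precursor first, had 924.9 and 889.2 with AMH and 1348 and 1402 in control and fell by 0.59 ± 0.14 (adjusted p = 0.02). Without control replicate 1 or control replicate 2 the call of Utp4 was lost (0.152 and 0.177).

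Smaller falls were those of Rrp7a (42.6 and 70.5 with AMH, 112.6 and 108 in control, -0.83 ± 0.25), Nop9 (56.8 and 39.7 with AMH, 89.6 and 99.2 in control, -0.79 ± 0.23) and Nol7 (749.1 and 888.6 with AMH, 1151 and 1328 in control, -0.59 ± 0.16). Their adjusted p was 0.0458, 0.0438 and 0.0325, and all 3 calls were lost without either control array. Rrp7a was also lost without AMH replicate 1 (0.0991) and Nop9 without AMH replicate 2 (0.0874).

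Utp20, a very large repeat protein of the particle, had 274.4 and 198.3 with AMH and 140.6 and 129.3 in control and rose by 0.73 ± 0.20 (adjusted p = 0.0386). Utp6 had 755 and 664.5 with AMH and 457.5 and 484 in control and rose by 0.57 ± 0.15 (adjusted p = 0.0318). Neither rise held without control replicate 1 (0.136 and 0.242) or control replicate 2 (0.18 and 0.156), that of Utp20 also failed without AMH replicate 1 (0.0887), and with hybridization control scaling the changes were 0.28 and 0.10. The other 12 genes of the particle ran from -0.48 for Rrp9 to 0.52 for Nol10.

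Large subunit factors gave 2 falls among 12 (16.7%, where 11.9% of all tested genes fell). Gtpbp4, a GTPase of the early large subunit precursor, had 81.9 and 95.2 with AMH and 260.5 and 255.6 in control and fell by 1.39 ± 0.18 (2.63-fold, adjusted p = 0.00219). Its second probe set gave -1.43 ± 0.19 (adjusted p = 0.00235), a measurement on other probes. Rrp15 had 101.5 and 87.2 with AMH and 214.3 and 277.5 in control and fell by 1.24 ± 0.20 (adjusted p = 0.00532). Bop1, which works with Pes1 and Wdr12 in maturation of the large subunit's RNA, had 79 and 78.5 with AMH and 98.6 and 115.7 in control (-0.37 ± 0.20, adjusted p = 0.22). Nop53 and Nol8 had the highest changes of this role, at 0.28 ± 0.14 (1188 and 1243 with AMH, 998.2 and 1002 in control) and 0.32 ± 0.18 (252.7 and 314.5 with AMH, 238.8 and 208.4 in control). Nol12 (-0.49 ± 0.19, 158 and 198 with AMH, 241.7 and 268.4 in control) was not called. The remaining genes Nop2, Rrp1, Rrp1b, Nop16, Rrp8 and Nol9 lay between -0.16 and 0.21.

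Nol3, Nol4 and Nol4l share only the name of the family. Nol3 encodes an inhibitor of apoptosis and had 56.8 and 50 with AMH and 46.6 and 55.9 in control (0.05 ± 0.23). Nol4l had 275 and 288.4 with AMH and 205.6 and 159.6 in control (0.59 ± 0.19, adjusted p = 0.0535). Nol4, untested, read 51.6 and 18.1 with AMH and 11 and 23.1 in control. Neither of the 2 tested genes was called.

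Probe sets of the same gene often disagreed. Of 13 members with more than 1 tested probe set, 8 had probe sets of opposite sign and 8 had probe sets with different calls. Some of the opposite signs were of changes near 0, such as -0.03 ± 0.32 at the dimmer probe set of Exosc3. The share of such differences among all genes was not counted. Among the 17 tested probe sets that were not the brightest of their gene, 5 fell and 1 rose, where 12.8% of all tested probe sets fell and 8.67% rose. Polr2m, not called at its brightest probe set, had another with 57 and 56.5 with AMH and 284.8 and 225.7 in control (-1.89 ± 0.20, adjusted p = 0.000939). Nop56 likewise had a dimmer probe set that fell (27.8 and 21.3 with AMH, 85.6 and 78.1 in control, -1.27 ± 0.24), as did Rrp1b (-0.95 ± 0.21).

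The rise of Utp6 stood beside a fall at its dimmest probe set (24.4 and 21.2 with AMH, 86.4 and 64.2 in control, -1.23 ± 0.25, adjusted p = 0.0121), and the mean over its probe sets was -0.41. Polr1d rose at its second probe set (1028 and 1010 with AMH, 502.1 and 416.2 in control, 1.13 ± 0.16, adjusted p = 0.00281). The mean over the probe sets of Polr1d was called higher by limma (0.67, adjusted p = 0.0348). The falls of Polr1f, Polr2f and Exosc1 were seen at 1 probe set each, and the means over all tested probe sets, -0.35, -0.39 and -0.52, were not called (adjusted p = 0.3, 0.172 and 0.0848). Which probe set reports which transcript form was not looked up here.

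**Figure D4:**
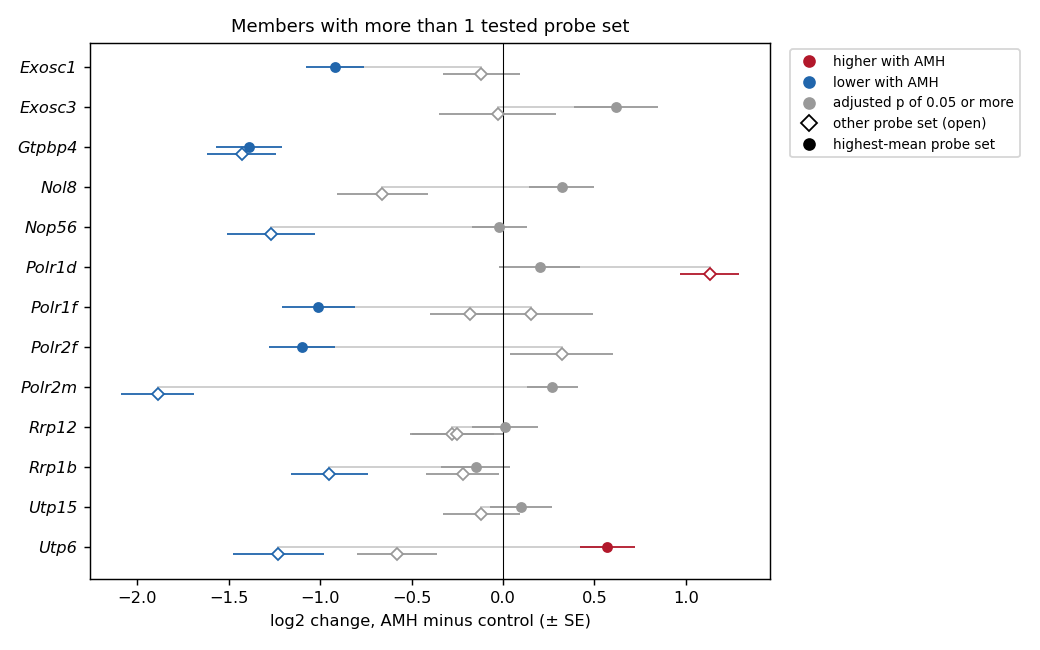
Log2 change (AMH minus control, ± SE, n = 2 arrays per group) at each tested probe set of the 13 members that have more than 1; filled circles are the brightest probe set of a gene, open diamonds the others, and colour gives the call. Of these genes Gtpbp4 alone has more than 1 probe set that fell, while 8 genes, Polr2m and Utp6 among them, have probe sets on both sides of 0.

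Gene span, from the first to the last base of the gene in RefSeq (GRCr8), was shorter at the median for members that fell, at 8525 bases for these 23, 15778 for those not called and 55836 for the 2 that rose. Over all tested genes with a span the medians were 14686 for falls, 25196 for genes not called and 27858 for rises. Spearman's rho between span and change was 0.414 across the 78 members and 0.126 across 10588 tested genes, all read on the same 4 arrays, and is given as a description. The 5 shortest members were Nop10 (1086 bases), Polr2i (1438) and Polr2l (2009), which fell, and Utp3 (1655, change 0.37) and Nol3 (1683, change 0.05), which were not called. The 5 longest were Nol4l (122791), Polr3b (103268), Nol10 (92295), Utp20 (80996) and Polr1a (63968), of which Utp20 rose and the others were not called. On these arrays the 3′/5′ ratio of control transcripts also differed between the groups, as given above, and its part in the relation was not tested. For intensity and change rho was 0.022 across the members and 0.1 across all tested genes.

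**Figure D5:**
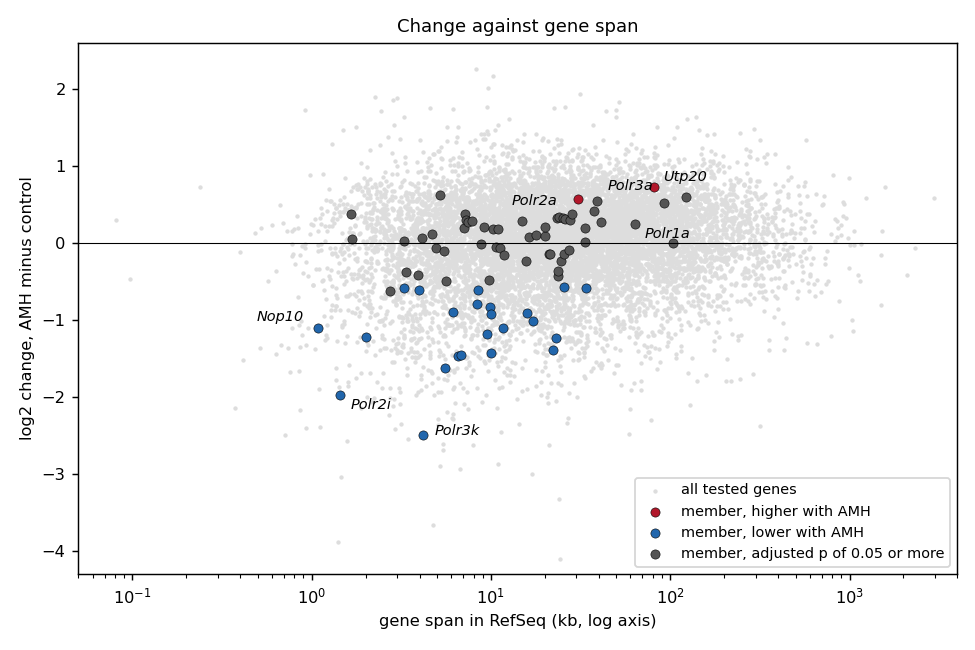
Log2 change (AMH minus control) against gene span in RefSeq (kb, log axis) for the tested members, coloured by call, and for all tested genes in light grey. Polr3k, Polr2i and Nop10 lie low at short spans, while Polr2a, Polr3a, Polr1a and Utp20 lie above 0 at longer spans. Members that fell also lie at longer spans, among them Gtpbp4 (22059 bases) and Utp4 (33887 bases), which are not labelled.

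Other genes of the same pathways, from lists of transcription factors and ribosome assembly factors that the symbol rule does not take, were called about as often as all genes. Of 182 tested, 22 rose and 21 fell (12.1% and 11.5%), with a median of 0.07. Among all tested genes 11.1% rose and 11.9% fell, and the counts of each list below stand against these shares. With hybridization control scaling the split was 0 rises and 53 falls (29.1% fell). Of all tested genes 0.885% rose and 24.4% fell under that scaling. With median centring the split was 32 and 18 (17.6% and 9.89%), where 14.2% of all tested genes rose and 10.5% fell.

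RNA polymerase I factors gave 0 calls by limma among 11 tested. Baz2a had 64.9 and 46.5 with AMH and 97.3 and 69.3 in control (-0.47 ± 0.25), Myc -0.17 ± 0.24, Nolc1 0.32 ± 0.17 and Taf1c 0.49 ± 0.25. General factors and assembly factors of RNA polymerase II gave 7 rises and 4 falls among 38. Gpn3, a GTPase for the nuclear import of the polymerase, had 44.9 and 45.3 with AMH and 247.4 and 229.2 in control and fell by 2.06 ± 0.19 (adjusted p = 0.000601). Gtf2h5, the smallest TFIIH subunit, fell by 0.91 ± 0.17. Gtf2f1, the large TFIIF subunit, had 843.5 and 872.3 with AMH and 420.4 and 384.9 in control and rose by 1.06 ± 0.15 (adjusted p = 0.0029). Rpap2, a phosphatase of the polymerase's tail, rose by 0.87 ± 0.16.

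RNA polymerase III factors gave 1 rise and 4 falls among 17. Snapc5 (-1.25 ± 0.22) and Brf2 (-0.90 ± 0.16) fell, both of the machinery for type 3 promoters, while Snapc1 of the same complex rose by 0.71 ± 0.16. Crcp, a further polymerase III subunit, was not called (0.66 ± 0.21, adjusted p = 0.0573). In the snoRNP list 1 rose and 4 fell among 13. Znhit3 had 158 and 265 with AMH and 679.6 and 598.1 in control and fell by 1.56 ± 0.23, Rpp25 fell by 1.27 ± 0.19, and Znhit6 rose by 0.59 ± 0.17. Tgs1, which methylates the cap of small nuclear and nucleolar RNAs, was not called at 0.63 ± 0.19. Nhp2, the H/ACA core protein that the symbol rule leaves out, fell by 0.94 ± 0.20 (adjusted p = 0.0142); it was named after its value was seen, as partner of Nop10 and Dkc1.

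Small subunit factors gave 7 rises and 4 falls among 41. Riok2, a kinase of the late precursor (1.09 ± 0.22), and the helicase gene Ddx52 (0.96 ± 0.21) rose. Tsr3 (-1.39 ± 0.21), Imp4 (-1.10 ± 0.17) and its partner Imp3 (-1.19 ± 0.19) fell, Imp3 being named after its value was seen. Mphosph10 of the same list pointed the opposite way without a call (0.66 ± 0.22, adjusted p = 0.0628). Large subunit factors gave 4 rises and 5 falls among 47. Mak16 (0.98 ± 0.20) and Noc2l (0.79 ± 0.17) rose, and Eif6, which keeps the subunits apart, fell by 0.80 ± 0.17 and Tex10 by 0.60 ± 0.15. Cofactors of the exosome and RNA turnover gave 2 rises and 0 falls by limma among 15. Xrn2, a nuclear exonuclease, had 528.1 and 595.5 with AMH and 315.5 and 260 in control and rose by 0.93 ± 0.17 (adjusted p = 0.00815), and Mtrex, the helicase of the nuclear exosome, rose by 0.58 ± 0.16. Dis3l2 (-0.69 ± 0.24) and Rbm7 (-0.34 ± 0.25) were not called.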

How the data were processed

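RNA of 4 pools of cultured ovaries was measured on Affymetrix arrays, 2 AMH and 2 control; the pools are independent per the labels' protocols. The authors deposited linear intensities in 1 table of 31099 probe sets. Their software is not given in the sources used. Trimmed of 2 percent at either end, the mean was 125.03 on every array, so the arrays had been scaled to a common target.

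Intensities were turned into log2(intensity + 16). Probe sets with a mean in the lowest 40 percent (below an intensity of 27.8) and 57 controls were dropped, which left 18625. The groups were compared with limma 3.58.1 in R 4.3.3 (lmFit, eBayes with an intensity trend), two-sided, adjusted over all tested probe sets by Benjamini-Hochberg. With 2 residual and 6.33 prior degrees of freedom, p-values rest on the spread pooled over probe sets. On 18625 simulated probe sets, with 50 given each change, the fit recovered 96% of log2 changes of -2 and 94% of changes of 2. It recovered 26% of changes of -1 and 46% of changes of 1, with 8 false calls. In the data 3999 probe sets were called, and the simulated arrays held no batch or 3′/5′ difference between groups. The simulated recovery and false calls therefore do not carry over to the data.

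Gene names are those of the platform annotation, which lists 1 symbol for 20832 probe sets, several for 436 and none for 9831. All 79 members matched RefSeq (GRCr8) by Entrez identifier. Values on every array were given for the 8 largest called falls and the called rises, the 2 highest and 2 lowest genes of each role by moderated statistic, and core subunits; of the other pathway lists the 2 highest and 2 lowest were named. Values of further members, Nhp2, Imp3 and Mphosph10 were added after they were seen. Members, roles and lists were chosen with earlier results of these data known. Equal replicate numbers did not pair the pools by deviation (r = -0.000816). Alternatives changed the constant, filter, scaling, trend, choice of probe set and block, and left out each array.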

Additional observations from a re-analysis of the deposited data

How the results depend on the processing

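The arrays' number, 2 per group, limits the precision. In the simulation, where few probe sets were changed, only large changes had high recovery. Counts of called members kept to 23 falls and 2 rises with a constant of 1 or 64. Of all tested genes 11.6% and 12.08% fell with these constants, and 10.64% and 11.15% rose. Falls numbered 32 with hybridization control scaling (41.0% of the members, where 24.4% of all tested genes fell). They numbered 21 with the lowest 60 percent left out (28.8% and 13.8%) and 19 with median centring (24.4% and 10.5%). With no filter there were 17 (21.5% and 6.89%), and with no intensity trend 17 (21.8% and 9.89%). Quantile normalization gave 20 (25.6% and 11.2%), as did the replicate number as a block (25.6% and 10.9%). Means of probe sets gave 21 (26.9%), and the share of all genes was not counted there. All 23 falls were shared by the hybridization control scaling. That scaling lowered all genes with AMH (median change -0.35), so falls could hardly be lost under it. Rises of members numbered 0 with hybridization control scaling (0.885% of all tested genes rose) and 4 with median centring (5.13%, all genes 14.2%). They numbered 1 with no filter (1.27%, all genes 5.28%) and 0 with no trend (all genes 6.39%). Quantile normalization gave 1 (1.28%, all genes 11.2%) and the replicate block 1 (1.28%, all genes 9.15%). Equal replicate numbers did not pair the pools. Under the block Exosc7 (adjusted p = 0.058), Nop9 (0.0569), Polr2e (0.0511) and Utp6 (0.055) lost their calls. Leaving out 1 array at a time gave 0 to 7 rises and 12 to 26 falls of members, 4 to 35 rises and 8 to 25 falls of the other pathway genes, and 334 to 2245 rises and 1047 to 2886 falls over all probe sets, against 1614 and 2385 with all arrays.

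Rises of the other pathway genes numbered 0 with hybridization control scaling (0.885% of all tested genes rose). They numbered 14 with no filter (7.61%, all genes 5.28%) and 12 with no trend (6.59%, all genes 6.39%). Their falls numbered 53 with hybridization control scaling (29.1%, all genes 24.4%). Over all probe sets that scaling gave 146 rises and 4935 falls (97.1% of calls lower, against 59.6%), no filter 1010 rises and no trend 989; median centring gave 2095 rises and 2139 falls. The cause was not tested beyond the construction of each setting.

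Over the arrays left out in turn, Nol3 ran from -0.05 to 0.15, Polr1g from -0.06 to 0.12, Polr1d from -0.15 to 0.56, Polr3b from -0.04 to 0.05 and Nop56 from -0.09 to 0.05. Signs turned for genes that were not called, except Utp6. With hybridization control scaling, which shifted all genes, the changes were Exosc2 -0.25, Fbl -0.27, Gar1 -0.16, Nol3 -0.32, Nol8 -0.14, Nop53 -0.20, Nop58 -0.13, Polr1a -0.15, Polr1c -0.40, Polr1d -0.27, Polr1g -0.37, Polr2a -0.14, Polr2b -0.07, Polr2d -0.09, Polr3b -0.41 and Polr3e -0.08. With means of probe sets Nol8 was -0.17 and Utp6 -0.41, and with median centring Nop56 was 0.05.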

Other observations

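Other promoter letters were counted in the same RefSeq windows, on both strands. The E-box CACGTG, the letters bound by MYC and USF factors, stood in 22 of 72 member windows (30.6%), against 9.71% of tested genes and 6.65% of all windows. The ETS motif CCGGAAG stood in 28 (38.9%), against 18.3% of tested genes and 9.22% of all windows. By call, the E-box stood in 7 of 21 windows of members that fell and 14 of 48 of those not called, and the ETS motif in 7 of 21 and 20 of 48. Exosome genes held either one in 1 of 8 windows each. The GC box GGGCGG stood in 49 member windows (68.1%, against 63.8% of tested genes), and TATAAA in 4 (5.56%, against 6.54%). These shares are descriptions and were not tested.

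The fallen H/ACA genes Nop10, Dkc1 and Nhp2 stood beside Gar1 at 0.30 ± 0.16. Of the partners of Bop1, chosen after their values were seen, Pes1 fell by 0.68 ± 0.19 (adjusted p = 0.0404, limma) and Wdr12 was not called (0.04).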
